A study of Mus musculus with 12 samples.

Results

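The transcripts described here are 37 putative noncoding RNAs of mouse kidney whose best database match is an entry for a small non-messenger RNA (snmRNA). They were taken from the authors' tables by the wording of that match, which had to read snmRNA and to name neither a snoRNA nor a scaRNA. They are 37 of 42452 transcripts in all, and no measured value entered the choice. A transcript missing from a library's table was taken as having 0 reads there.

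The study compared wild-type (WT) mice with mice lacking Smad3 (KO), a transcription factor that acts downstream of TGF-β, all on the C57BL/6J background. Each genotype was sampled as normal kidney, as kidney whose ureter had been tied for 5 days, on the left side (unilateral ureteral obstruction, UUO), and at day 10 of anti-GBM disease, a glomerulonephritis caused by antibody to the glomerular basement membrane. The series title sets out to find genes of kidney inflammation and fibrosis that depend on TGF-β and Smad3. The 6 groups (WT normal, WT UUO, WT anti-GBM, KO normal, KO UUO and KO anti-GBM) held 2 libraries each, 12 in all. Mice of the UUO protocol, in groups of 8, were of both genders and weighed 22 to 25 g. For anti-GBM disease mice received sheep IgG in Freund's complete adjuvant and, 5 days later, sheep globulin against mouse glomerular basement membrane at 60 µg per g of body weight. The protocol can be read as giving that globulin once or again at day 10. It names sham-operated as well as normal mice as controls, while the control libraries are labelled normal. Ages, and how Smad3 was deleted, are not given. Smad3 itself was not analysed here, and 0 of 32 markers of kidney and immune cell types occur among the matches, so neither genotype nor tissue was checked against its markers.

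Small non-messenger RNA is a collective name for short RNAs that carry no protein message and were cloned from size-selected RNA. Many of them proved to be small nucleolar RNAs, which pair with ribosomal or spliceosomal RNA and guide its chemical modification, and many such RNAs are cut from the introns of host genes. The matches named here give only an entry number and the word snmRNA, with no function.

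The 37 transcripts matched 22 entries, numbered between AF357431 and AF357515. They were long: between 329 and 10002 bases, with a median of 2601 bases. The match therefore says which short RNA a transcript resembles in some stretch, and not that the transcript is that RNA. The libraries were made from RNA over 150 bp, so free small RNAs below that size were not sampled. The 134 transcripts matched to snoRNAs or scaRNAs had a median of 1074 bases. The reference gene table from RefSeq held 7 other entries of the AF357 series, all 7 of them snoRNA genes, and 0 of the 22 entries matched here.

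Structural families from RFAM, a collection of RNA family models, were listed by the authors for 11 of the 37 transcripts, or 29.7%, against 24.6% of the snoRNA and scaRNA matches. All 4 transcripts matched to AF357498 carried the model snR43, named for a yeast snoRNA of the H/ACA class, which guides pseudouridine formation. A further 3 carried SRP_euk_arch, the model of the RNA of the signal recognition particle: ncRNA_aligned_2232 (AF357500), ncRNA_aligned_7310 and ncRNA_aligned_7309 (both AF357436). That model was also given to 1741 of the 42452 transcripts. The remaining 4 carried models named for internal ribosome entry sites, elements by which an mRNA recruits ribosomes without its cap: IRES_EBNA in ncRNA_aligned_5985, IRES_mnt in ncRNA_aligned_7764, IRES_HIF1 in ncRNA_aligned_844 and IRES_HCV in ncRNA_aligned_5695.

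Of the 22 entries, 13 were the match of 1 transcript each. The other 9 were shared by 24 transcripts: AF357498 by 4, AF357435, AF357436, AF357438 and AF357515 by 3 each, and AF357432, AF357444, AF357446 and AF357503 by 2 each. Transcripts that share a match may share sequence, and the tables do not record how a read that fits several of them was assigned, nor any strand. Values of single transcripts within such a set, and of any transcript overlapped by another, are uncertain for that reason.

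Sharing of a match went with how broadly a transcript was covered. Breadth of coverage is given here as the covered length divided by the length that the same number of randomly placed reads would cover. It was taken in libraries with 20 or more reads of the transcript, and 1 stands for the breadth of randomly placed reads. At very high read numbers both lengths near the whole transcript, so the ratio then says little about evenness. Each transcript was given its median ratio over the libraries of ordinary breadth (defined below). The 13 transcripts with a match of their own then lay between 0.862 and 0.983, with a median of 0.959. The 16 measurable transcripts with a shared match ran from 0.124 to 0.804, with a median of 0.374, and 9 of them, 56.2%, lay under 0.5. These 2 ranges of medians did not overlap, but ratios of single libraries did. In its lowest such library ncRNA_aligned_2145, with its own match, had 0.607, and in its highest ncRNA_aligned_5661, with a shared match, had 0.948. Other matched transcripts showed the same split, with medians of 0.895 (3927 transcripts) and 0.399 (3126 transcripts), so the split is not particular to snmRNA matches. The narrowest examples were ncRNA_aligned_425 (AF357498, 4314 bases), with reads over 6.42 to 11.7% of its length in every library that gave 20 or more, and ncRNA_aligned_7183 (AF357503, 8466 bases), with reads over 3.70 to 7.43%. Their reads came from a small stretch of the listed transcript. ncRNA_aligned_6514, with 12074 to 40052 reads a library, was covered over 95.6 to 98.8% of its length. Read numbers were not matched between the 2 kinds of match. In libraries with 20 or more reads ncRNA_aligned_425 had 32 to 91, and ncRNA_aligned_829, with its own match, 60 to 299. The part of read number in the split was not tested.

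**Figure D1:**
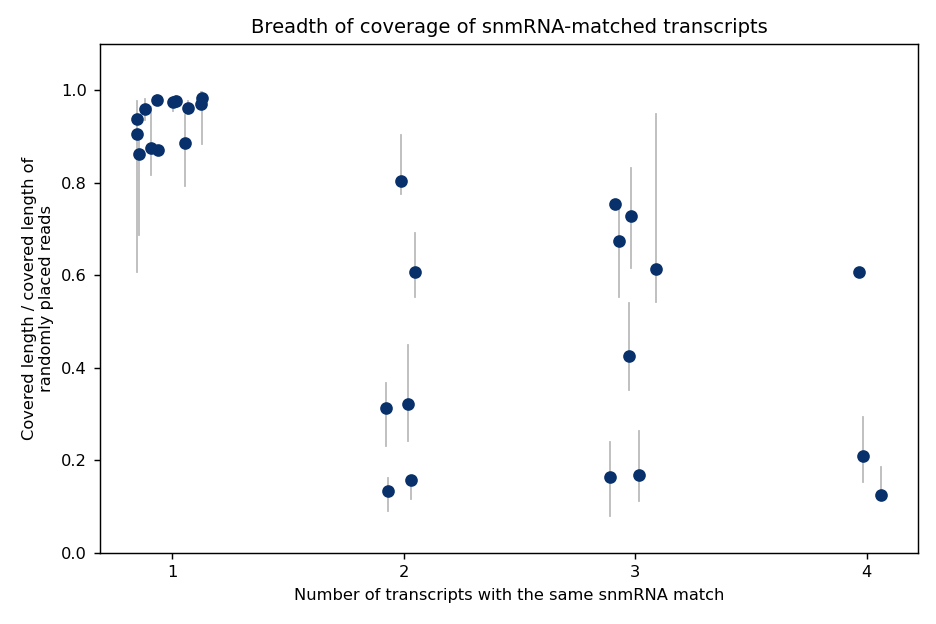
Breadth of coverage of the snmRNA-matched transcripts (vertical axis, ratio without unit) by the number of transcripts with the same match (horizontal axis). Points are medians over the libraries of ordinary breadth with 20 or more reads and grey lines run from the lowest to the highest such library; all 13 points at 1 transcript lie at 0.862 or above, and all points at 2 to 4 transcripts lie at 0.804 or below.

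The libraries held between 4595261 and 7342937 reads on listed transcripts, and the 37 transcripts took 0.5051 to 1.044% of them. In 3 libraries reads of transcripts in general were piled on short stretches, with a median breadth of 0.444 in WT UUO replicate 1, 0.284 in KO UUO replicate 1 and 0.335 in KO anti-GBM replicate 1, against 0.631 to 0.905 in the other 9. The snmRNA matches moved with them: their own median breadth was 0.437 to 0.507 in those 3 libraries and 0.647 to 0.831 in the 9. ncRNA_aligned_2145 (AF357437) had reads over 11.5% of its length in the lowest of the 12 libraries and over 97.4% in the highest. Replicate numbers below only tell the 2 libraries of a group apart.

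A large part of the reads of the class lay on 1 transcript. ncRNA_aligned_6514 (AF357441, 2653 bases) had the most reads of the class in every library and held 39.21 to 73.27% of the reads of the 37, with 39.21 to 44.64% in the 4 normal libraries. Per length it also led: its RPKM, the authors' deposited measure of reads relative to transcript length and library total, had a median over libraries of 1601, with a lowest of 747 and a highest of 2882. Next by median RPKM came ncRNA_aligned_7764 (AF357450) with 175, ncRNA_aligned_6409 (AF357506) with 142 and ncRNA_aligned_2170 (AF357453) with 136, and their ranges over libraries (66.8 to 226, 84.5 to 172, and 56.9 to 309) overlapped one another. ncRNA_aligned_2226 (AF357447) followed at 95.5 and ncRNA_aligned_3673 (AF357431) at 81.7. The longest, ncRNA_aligned_5985 (AF357508, 10002 bases), had a median RPKM of 49.2. Of the 37, 27 had reads in every library and 21 reached a mean of 10 CPM. CPM are read counts brought to a common library total, here scaled by TMM, edgeR's correction for differences in composition between libraries.

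**Figure D2:**
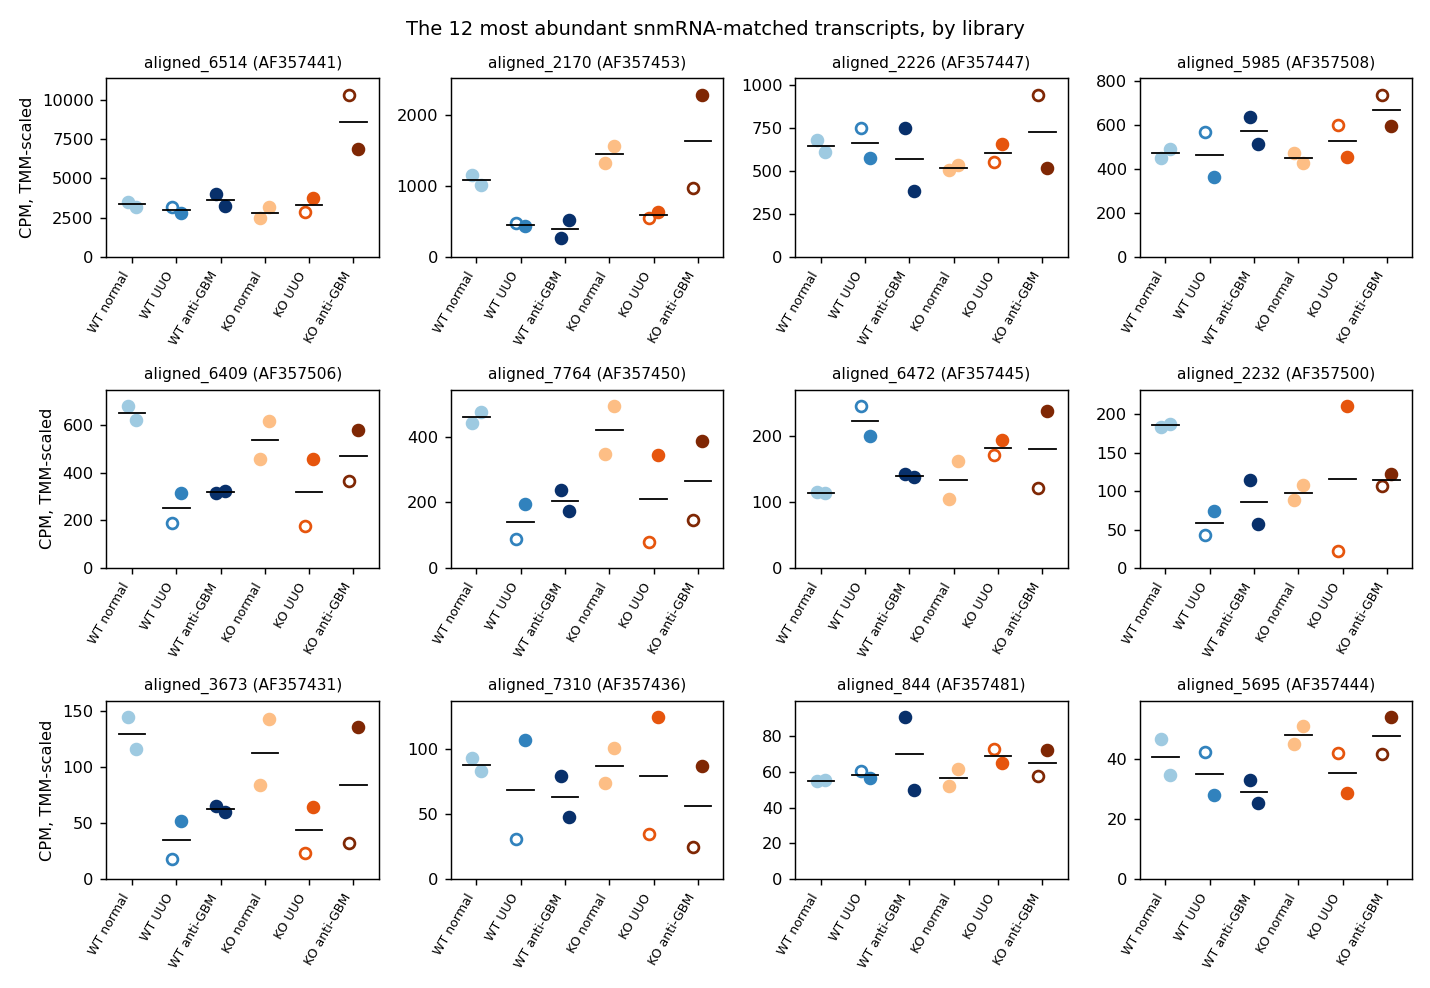
Level (CPM, TMM-scaled, linear axes from 0) of the 12 snmRNA-matched transcripts of highest mean level, in the 6 groups. Each circle is a library, open circles are the 3 libraries of low breadth and black bars are group means; ncRNA_aligned_6514 stands highest in the KO anti-GBM libraries (10320 and 6861 CPM), and the open circles lie below the other library of their group in several panels.

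The class took a larger share of the reads of injured kidneys, and whether this counts as a higher level depends on the scaling. As a plain share of the library the 37 transcripts took 0.5051 to 0.5974% in the 4 normal libraries and 0.7036 to 1.044% in the 8 injured ones, so that all 8 lay above the highest normal library. Scaled by TMM the same sums ran from 6251 to 7883 CPM in normal and from 5319 to 14084 CPM in injured libraries, and only the 2 KO anti-GBM libraries lay above every normal one. The total that these shares refer to includes 2 very abundant transcripts, called dominant below: a transcript of mitochondrial length and a 290-base transcript. They took 1.949 to 35.73% and 1.703 to 36.35% of a library, with their highest shares in different libraries. With both left out of the total, all 8 injured libraries again lay above the normal ones, at 9529 to 17216 CPM against 8414 to 8951. These are sums of whole tissue, in which fewer cells of a type and less RNA per cell cannot be told apart.

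ncRNA_aligned_6514 and the other 36 transcripts differed in this. On the total without the 2 dominant transcripts ncRNA_aligned_6514 took 3299 to 3996 CPM in normal and 5130 to 12615 in injured libraries, with no overlap. By plain library size it took 1981 to 2667 and 3605 to 7647 CPM, again with no overlap, and after TMM scaling 2451 to 3519 and 2761 to 10320 CPM, with 4 of 8 injured libraries above. On the total without the 2 dominant transcripts the other 36 together took 4878 to 5246 CPM in normal and 4399 to 5244 in injured libraries, and 0 of 8 injured libraries lay above the highest normal one. By plain library size these 36 stood at 3043 to 3362 CPM in normal and 2789 to 4150 in injured libraries, with 6 of 8 above. After TMM scaling the mean of the 36 in WT mice was 4248 CPM in normal kidney and 2620 CPM after UUO, beside 3356 and 2952 CPM for ncRNA_aligned_6514.

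**Figure D3:**
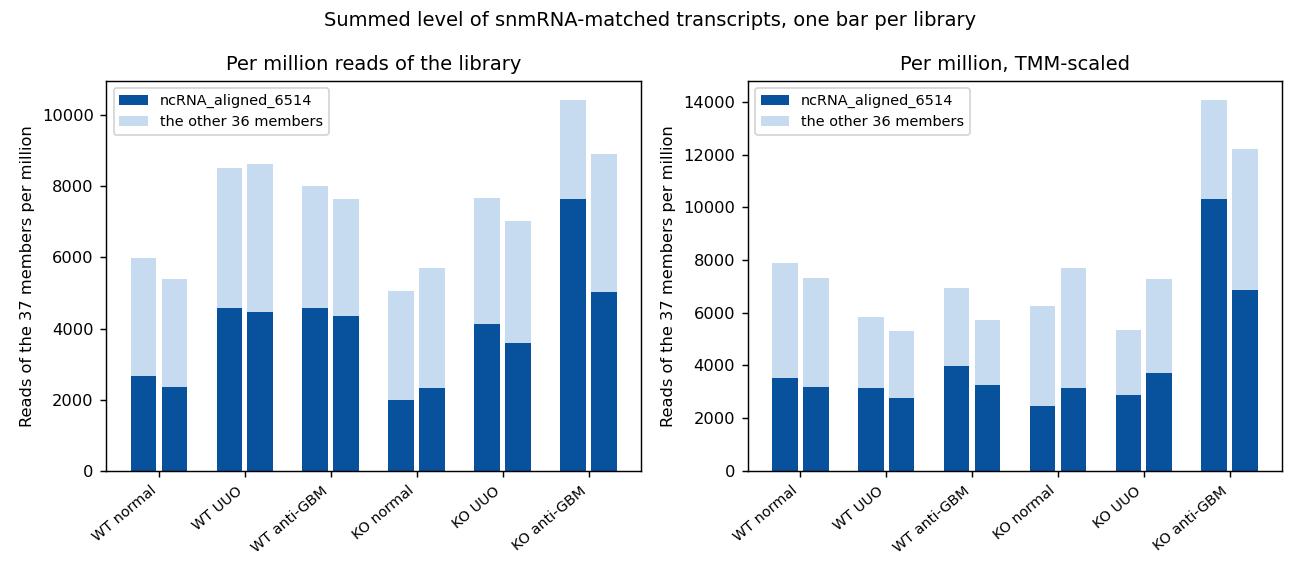
Summed level of the 37 transcripts (vertical axis, CPM, from 0), 1 bar per library, by plain library size (left) and after TMM scaling (right). Dark segments are ncRNA_aligned_6514 and light segments the other 36 transcripts; by library size all 8 injured bars exceed the 4 normal ones, and after TMM scaling only the KO anti-GBM bars do.

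For the tests, 32 of the 37 transcripts passed edgeR's filter on low counts (24816 of 42452 transcripts did). The 5 that did not pass had at most 14 reads in any library: ncRNA_aligned_3731, ncRNA_aligned_3733, ncRNA_aligned_4455, ncRNA_aligned_7308 and ncRNA_aligned_893, all with shared matches. Over 9 comparisons, 7 of them between pairs of groups and 2 of interaction, 288 tests were made. In edgeR's quasi-likelihood test 0 of the 288 had an adjusted p under 0.05, the threshold for a call; 31 had an unadjusted p under 0.05, in 17 transcripts. The smallest adjusted p was 0.0509. Log2 fold changes below are edgeR's on TMM-scaled counts, ± the standard error, and adjusted p-values are edgeR's with Benjamini-Hochberg adjustment over all 24816 transcripts.

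In obstructed WT kidney 23 of the 32 lay below 0 after TMM scaling. None of the 32 was called (2.42% of all transcripts were). DESeq2 called 2 of the 32, beside 1377 of all 24816 transcripts. Unadjusted p-values under 0.05 fell on 11 lower transcripts, or 34.4% (8.34% of all transcripts), and on 2 higher ones, or 6.25% (7.48% of all). The median log2 fold change of the 32 was -0.39, beside 0.49 over all transcripts tested and -0.24 over 108 snoRNA and scaRNA matches. It was -0.22 over 7863 other matched transcripts and 0.89 over transcripts predicted without a database match. Lying below the middle of all transcripts was therefore not particular to the class. Unadjusted p-values under 0.05 on the lower side fell on 19 of those 108 and on 1249 of those 7863. Both UUO libraries lay below both normal ones for 16 of the 32 (23.5% of all transcripts) and above them for 5 (31.0%). With library size alone the medians were 0.68 for the class and 1.55 for all transcripts, so that the class then lay above 0 and again below the middle of all transcripts. Under that scaling 59.4% of the 32 were above 0 (81.5% of all), against 28.1% with TMM (61.1% of all) and 46.9% with DESeq2's size factors (66.8% of all).

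The 2 transcripts of entry AF357432 had the smallest p-values of the class between obstructed and normal WT kidney. ncRNA_aligned_2111 (2866 bases) had 32.3 and 23.2 CPM in WT normal and 1.19 and 4.20 CPM in WT UUO. Both UUO values lay below the normal ones, from 8 and 50 reads against 151 and 107. The log2 fold change was -3.33 ± 0.89, with an adjusted p of 0.0509. Its neighbour by match, ncRNA_aligned_2110 (2519 bases), had 49.6 and 42.3 CPM in WT normal and 17.7 and 9.57 CPM in WT UUO, a log2 difference of -1.75 ± 0.54 (adjusted p 0.0923). DESeq2 called both, with adjusted p-values of 0.0125 for the first and 0.0495 for the second. With library size alone edgeR called neither, at -2.24 (adjusted p 0.12) and -0.71 (adjusted p 0.392). When the reads of transcripts sharing a match were summed, an alternative added after seeing the data, AF357432 passed the test at -2.20 ± 0.51 with an adjusted p of 0.0173.

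Several abundant transcripts with a match of their own lay lower in WT UUO by unadjusted p-value. ncRNA_aligned_2170 had 1154 and 1016 CPM in WT normal and 476 and 434 CPM in WT UUO, with a log2 difference of -1.25 ± 0.42 and an adjusted p of 0.135. For ncRNA_aligned_6409 the values were 681 and 622 CPM against 189 and 313 CPM, and the log2 difference was -1.37 ± 0.45 (adjusted p 0.119). In each, the 2 groups did not overlap. ncRNA_aligned_7764 had 443 and 477 CPM against 87.0 and 194 CPM, and ncRNA_aligned_3673 had 145 and 116 CPM against 17.9 and 51.8 CPM. ncRNA_aligned_2232 stood at 184 and 187 CPM against 42.6 and 73.5 CPM. For these 3 the library of low breadth, WT UUO replicate 1, gave the lower of the 2 UUO values, and their log2 differences were -1.71 ± 0.61, -1.90 ± 0.65 and -1.68 ± 0.73. On the libraries of ordinary breadth the same differences were -1.32, -1.41 and -1.41. With library size alone these differences were smaller, at -0.62, -0.81 and -0.59. They were then -0.20 for ncRNA_aligned_2170 and -0.30 for ncRNA_aligned_6409, and adjusted p-values by edgeR ran from 0.373 to 0.751.

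The remaining lower ones were less abundant: ncRNA_aligned_2145 (-2.13 ± 0.87), ncRNA_aligned_425 (-1.71 ± 0.70), ncRNA_aligned_894 (AF357446, -1.27 ± 0.61) and ncRNA_aligned_7182 (AF357503, -1.20 ± 0.55). Their adjusted p-values lay between 0.231 and 0.314. With library size alone they stood at -1.04, -0.64, -0.22 and -0.14. On the higher side, ncRNA_aligned_6472 (AF357445, 3871 bases) had 115 and 113 CPM in WT normal and 246 and 200 CPM in WT UUO, a log2 difference of 0.96 ± 0.44 (adjusted p 0.285); with library size alone it was called, at 2.02 with an adjusted p of 0.0046. ncRNA_aligned_424 (AF357498) had 0.641 and 0.434 CPM in WT normal but 12.7 and 0.756 CPM in WT UUO, so its difference came from the library of low breadth, where 85 reads lay on 5.25 to 5.30% of its length (30 reads in the other such library). ncRNA_aligned_6514 itself had 3519 and 3193 CPM in WT normal and 3143 and 2761 CPM in WT UUO, a log2 difference of -0.19 ± 0.34.

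Each of the 12 refits without 1 library left a group with a single library, so calls from these refits are not counted here. Over them the log2 fold change of ncRNA_aligned_2111 in WT UUO ran from -4.67 to -2.77. That of ncRNA_aligned_2170 ran from -1.43 to -1.24. On the 9 libraries of ordinary breadth ncRNA_aligned_2111 stood at -2.80 and ncRNA_aligned_2170 at -1.40. There WT UUO, KO UUO and KO anti-GBM are a single library each, assumed to vary like the other groups. Calls from that fit are therefore not counted here either.

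**Figure D4:**
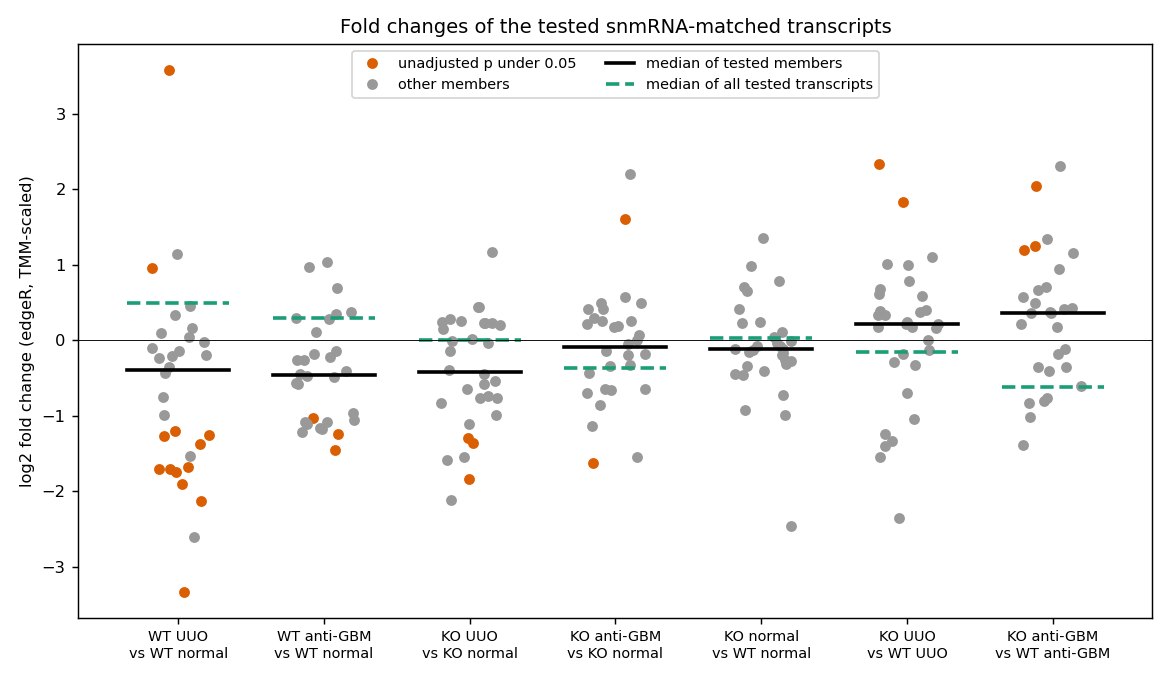
Log2 fold changes (edgeR, TMM-scaled; vertical axis) of the tested snmRNA-matched transcripts in the 7 comparisons of group pairs; transcripts with 3 or fewer reads in a group are left out of that comparison. Each circle is a transcript, in orange where the unadjusted p was under 0.05; the black bar is the median of all 32 tested and the dashed bar that of all 24816 transcripts, which lies above the class in the first 3 comparisons and below it in KO anti-GBM against WT anti-GBM.

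In WT anti-GBM disease fewer transcripts of the class had an unadjusted p under 0.05 than in WT UUO. edgeR called 0 of the 32 (0.0201% of all transcripts), as did DESeq2, and 4 had an unadjusted p under 0.05 on the lower side (12.5%, against 3.08% of all transcripts) and 0 on the higher (3.48% of all). The median log2 fold change was -0.46, beside 0.30 over all transcripts. It was -0.13 over snoRNA and scaRNA matches, -0.23 over other matched transcripts and 0.64 over predicted ones. With library size alone the class had 0.28 and all transcripts 1.03. The 2 anti-GBM libraries lay below both normal ones for 16 transcripts (21.9% of all) and above for 4 (32.7%). Both WT comparisons use the same 2 normal libraries.

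ncRNA_aligned_2170 was again among the lower ones, with 267 and 522 CPM in WT anti-GBM against the 1154 and 1016 CPM of WT normal. The groups did not overlap, and the log2 difference was -1.46 ± 0.43 (adjusted p 0.305). ncRNA_aligned_6409 had 316 and 322 CPM, a log2 difference of -1.03 ± 0.45 from normal, and ncRNA_aligned_2110 had 20.1 and 18.7 CPM, a difference of -1.24 ± 0.53. The fourth, ncRNA_aligned_4454 (AF357515), had 45 and 4 reads in WT normal and 0 and 2 in WT anti-GBM, a ratio of 45.8 with a 95% interval from counting error alone of 12.0 to 389; 1 normal library held nearly all of those reads. On the libraries of ordinary breadth ncRNA_aligned_2170 stood at -1.46, ncRNA_aligned_6409 at -1.03 and ncRNA_aligned_2110 at -1.25. With library size alone they stood at -0.68, -0.28 and -0.50.

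In KO kidney, obstruction left the class with few differences by these tests. None was called by edgeR (0.0121% of all transcripts) or DESeq2, and unadjusted p-values under 0.05 fell on 3 lower transcripts (9.38%, against 3.16% of all transcripts) and 0 higher ones (2.82%). The median log2 fold change was -0.42, beside 0.00 over all and -0.84 over the snoRNA and scaRNA matches. Other matched transcripts had a median of -0.13 and predicted ones 0.11. With library size alone the class had 0.24, beside 0.58 over all. Both UUO libraries lay below both normal ones for 12 transcripts (19.3% of all) and above for 4 (16.7%). ncRNA_aligned_2170 had 1328 and 1571 CPM in KO normal and no more than 632 CPM in either KO UUO library, with a log2 difference of -1.30 ± 0.42 (adjusted p 0.588). ncRNA_aligned_3673 had 83.9 and 143 CPM against 23.7 and 64.7 CPM (-1.36 ± 0.64), and ncRNA_aligned_7183 had 13.4 and 15.2 CPM against 2.02 and 6.02 CPM (-1.84 ± 0.82). For each of these 3 the lower UUO value came from replicate 1, of low breadth. On the libraries of ordinary breadth their log2 differences were -1.21, -0.82 and -1.26. With library size alone they were -0.67, -0.83 and -1.33. Without KO UUO replicate 2, which leaves only replicate 1 for the group, the median over all transcripts moved from 0.00 to -0.35. Over the refits without 1 library the median of the class ran from -1.14 to -0.18.

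KO anti-GBM kidney stood out for ncRNA_aligned_6514. Its level was 10320 and 6861 CPM there, against 2451 and 3164 CPM in KO normal, 2868 and 3732 CPM in KO UUO and 3968 and 3262 CPM in WT anti-GBM. Both KO anti-GBM libraries lay above each of the other 10. The lower value came from replicate 2, whose breadth of 0.631 was the lowest of the 9 libraries of ordinary breadth. These 2 libraries also listed the fewest transcripts, 17997 and 25434, against 26078 to 37442 in the other 10. The part of this in the level of ncRNA_aligned_6514 was not tested. Against KO normal the log2 fold change was 1.61 ± 0.35, with an adjusted p of 0.149. DESeq2 called it at 1.72 with an adjusted p of 0.0123. edgeR did so with DESeq2's size factors (adjusted p 0.0292), with library size alone (1.55, adjusted p 0.0358) and with no filter on low counts (0.0169). On the 9 libraries of ordinary breadth, where KO anti-GBM is a single library, it stood at 1.30. Over the 12 refits without 1 library its log2 fold change lay between 1.30 and 1.83.

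In KO anti-GBM against KO normal, ncRNA_aligned_6514 was the 1 transcript of the class with an unadjusted p under 0.05 on the higher side (3.12%, against 2.66% of all). edgeR called 0 of the 32 (0.0524% of all transcripts), and 2 had an unadjusted p under 0.05 on the lower side (6.25%, against 6.08% of all). Both shares were close to the background. The median was -0.09, beside -0.37 over all transcripts, -0.11 over snoRNA and scaRNA matches, -0.04 over other matched transcripts and -0.62 over predicted ones. Groups did not overlap for 4 higher transcripts (11.7% of all) and 8 lower ones (28.6%). ncRNA_aligned_425 had 16.9 and 13.6 CPM in KO normal and 3.09 and 6.70 CPM in KO anti-GBM (-1.63 ± 0.71, adjusted p 0.557). ncRNA_aligned_3732 (AF357435) had 12 and 8 reads in KO normal and 0 in both KO anti-GBM libraries, so it was at least 6.40-fold higher in KO normal, with the empty group set at 3 counts over its 2 libraries. With that transcript at its bound the median of the class stayed at -0.09.

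Between genotypes, normal kidneys gave no call among the 32 by edgeR (0.0161% of all transcripts) or DESeq2. Unadjusted p-values under 0.05 fell on 0 higher transcripts (1.08% of all) and 0 lower ones (1.14%). The median log2 difference was -0.12, beside 0.03 over all transcripts. In this comparison KO values did not overlap WT values for 4 higher transcripts (19.7% of all) and 9 lower ones (17.6%). ncRNA_aligned_2170 was among the 4, at 0.42 ± 0.42, and ncRNA_aligned_6514 among the 9, at -0.26 ± 0.34.

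In obstructed kidney, KO against WT gave 0 calls by edgeR (0.00806% of all transcripts) or DESeq2 and 2 unadjusted p-values under 0.05, both higher in KO (6.25%, against 2.83% of all); 0 were lower (3.26% of all). KO values did not overlap WT values for 6 higher transcripts (11.3% of all) and 2 lower ones (19.4%). The median was 0.21, beside -0.16 over all, 0.18 over snoRNA and scaRNA matches, 0.15 over other matched transcripts and -0.39 over predicted ones. With library size alone the class had -0.24, beside -0.57 over all. ncRNA_aligned_2111 had 9.79 and 18.1 CPM in KO UUO and 1.19 and 4.20 CPM in WT UUO, with no overlap and a log2 difference of 2.33 ± 0.86 (adjusted p 0.707). ncRNA_aligned_2145 had 3.51 and 49.9 CPM in KO UUO and 4.47 and 10.4 CPM in WT UUO. Its KO libraries enclosed those of WT, and its log2 difference of 1.83 ± 0.86 turned to -1.17 without KO UUO replicate 2. Over the 12 refits without 1 library the log2 difference of ncRNA_aligned_2111 ran from 1.73 to 3.62.

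Between the genotypes in anti-GBM disease, ncRNA_aligned_2170 (AF357453, 5427 bases) had the smallest p-value of the class. It had 978 and 2290 CPM in KO anti-GBM and 267 and 522 CPM in WT anti-GBM, and the lower KO value, from the library of low breadth, was above both WT values. The log2 difference was 2.05 ± 0.43, with an adjusted p of 0.0623. DESeq2 called it at 1.90 (adjusted p 0.0192), as did edgeR with no filter (adjusted p 0.002), while with library size alone it was 1.25 (adjusted p 0.109). On the libraries of ordinary breadth it was 2.55, with KO anti-GBM then the single library of 2290 CPM. Over the 12 refits without 1 library it ran from 1.26 to 2.57. It was 1.26 without KO anti-GBM replicate 2 and 1.59 without WT anti-GBM replicate 1. Summing the reads of transcripts that share a match left this transcript alone with its entry and gave 2.08 ± 0.43 with an adjusted p of 0.0468.

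Also in anti-GBM disease, ncRNA_aligned_6514 was 1.25 ± 0.35 log2 higher in KO (adjusted p 0.176), and the values given above did not overlap. With library size alone its difference was 0.49 (edgeR adjusted p 0.336). ncRNA_aligned_2110 had 45.6 and 43.1 CPM in KO anti-GBM and 20.1 and 18.7 CPM in WT anti-GBM, a difference of 1.19 ± 0.53 (adjusted p 0.319). With library size alone that difference was 0.43 (edgeR adjusted p 0.648). edgeR called 0 of the 32 (0.0201% of all transcripts). DESeq2 called 1, beside 434 over all transcripts. Those 3 were all that had an unadjusted p under 0.05 on the higher side (9.38%, against 4.34% of all), and 0 had one on the lower side (10.4% of all). KO values lay above WT values without overlap for 10 transcripts (13.4% of all) and below for 3 (38.2%). The median was 0.36, beside -0.62 over all transcripts. With library size alone the 2 medians were -0.39 and -1.37, so the sign of the class turned and its place above the middle of all transcripts did not. That place was not particular to the class. After TMM scaling the median was 0.61 over snoRNA and scaRNA matches, 0.16 over other matched transcripts and -1.17 over predicted ones.

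Whether the response to injury differed between genotypes was tested by interaction terms. For UUO edgeR called 0 of the 32 (0.0604% of all transcripts) and 0 had an unadjusted p under 0.05 with a response more positive in KO (2.70% of all) or less so (2.93%); DESeq2 called 0. For anti-GBM disease edgeR called 0 (0.0161% of all) and DESeq2 called 0, and 3 had an unadjusted p under 0.05, all with the more positive response in KO (9.38%, against 2.79% of all); 0 had the less positive one (7.21% of all). ncRNA_aligned_2170 had an interaction of 1.63 ± 0.59 (adjusted p 0.425): its log2 fold change over normal was -1.46 ± 0.43 in WT and 0.17 ± 0.42 in KO. ncRNA_aligned_6514 had one of 1.51 ± 0.49 (adjusted p 0.384), from 0.11 ± 0.34 in WT and 1.61 ± 0.35 in KO. The third was ncRNA_aligned_4454, whose interaction turned in sign without KO anti-GBM replicate 1 and rests on few reads. On the libraries of ordinary breadth, where KO anti-GBM is a single library, the interaction of ncRNA_aligned_2170 was 2.13. With library size alone the interactions were smaller, at 0.78 for ncRNA_aligned_2170 and 0.71 for ncRNA_aligned_6514. By library size ncRNA_aligned_6514 was also higher in WT anti-GBM (mean 4476 CPM) than in WT normal (mean 2509 CPM).

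After TMM scaling some members of the class varied little. ncRNA_aligned_844 (AF357481) ran from 49.8 to 90.9 CPM over the 12 libraries and ncRNA_aligned_5985 from 361 to 736 CPM. ncRNA_aligned_5695 (AF357444) ran from 25.3 to 54.0 CPM and ncRNA_aligned_2226 from 384 to 946 CPM. In all 4 the smallest unadjusted p over the 9 comparisons was above 0.05, and the largest log2 fold change in size between 2 groups was 0.71, for ncRNA_aligned_5695 in KO against WT anti-GBM. By contrast ncRNA_aligned_7309 ran from 0.319 to 13.7 CPM. Its 2 lowest libraries, KO UUO replicate 1 and KO anti-GBM replicate 1, are of low breadth. The part of breadth in that range was not tested. In RPKM, which takes no TMM scaling, the 4 steady transcripts lay higher in WT UUO than in WT normal. ncRNA_aligned_844 had 35.6 and 37.1 against 16.8 and 16.5, and ncRNA_aligned_5985 had 82.8 and 58.5 against 34.1 and 36.2. For ncRNA_aligned_5695 these were 14.2 and 10.4 against 8.11 and 5.83, and for ncRNA_aligned_2226 181 and 156 against 85.3 and 74.7.

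The share of the leading transcript differed among the 9 sets that share a match. ncRNA_aligned_7310 held 73.6 to 98.5% of the reads of AF357436, ncRNA_aligned_4456 at least 69.7% of AF357515, ncRNA_aligned_5695 at least 95.1% of AF357444 and ncRNA_aligned_894 at least 93.1% of AF357446. In AF357432 the share of ncRNA_aligned_2110 ran from 50.6 to 93.7%, with ncRNA_aligned_2111 holding the rest. In AF357503 the share of ncRNA_aligned_7182 ran from 36.8 to 92.9%, and in AF357498 that of ncRNA_aligned_425 from 16.7 to 62.4%. ncRNA_aligned_5660 held 27.9 to 64.3% of AF357438. In AF357435, of few reads, ncRNA_aligned_3732 held the most reads in 8 of 12 libraries and none in the library where its share was lowest.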

How the data were processed

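The submitters' processing notes name Bowtie 0.12.7 and the mm9 build for the 12 mouse kidney libraries; assembly, read assignment and strand are not given in the sources used here. The authors deposited 1 table per library: per the file headers it holds unique read counts, transcript length, covered share as a percent, RPKM and mean depth (coverage signal). Only transcripts with reads are listed.

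Groups came from genotype and disease model in the labels. Replicate numbers are in accession order and pair nothing. The labels count 12 tissue samples but do not say from which animals, so p-values measure the spread between these libraries; with 2 against 2 a permutation p cannot go below 0.3333. Replicates differed by more than sampling noise (chi-square per degree of freedom 11.04 to 228.8).

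The test on counts was that of edgeR 4.0.16 (R 4.3.3) with filterByExpr by group, TMM, robust quasi-likelihood fit with 1 mean per group over all 12 libraries, F tests, Benjamini-Hochberg adjustment over 24816 transcripts. The standard error follows from the F statistic. The script was tested on simulated data. Breadth of a library is the median ratio of transcripts that exceed 500 bases and have between 20 and 200 reads, and under 0.5 is called low. Alternatives were DESeq2 1.42.0, its size factors, library size alone, no filter, libraries of breadth 0.5 or more, each library left out, members under 150 bases left out, and, chosen after seeing the data, reads summed by match. Intervals and floors cover counting error only.

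Members and lists were chosen with earlier results of these data known. Named with values are members with an unadjusted p under 0.05 in any comparison and the 12 of highest mean CPM; others in the text were named after their values were seen.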

Additional observations from a re-analysis of the deposited data

Results flagged for a closer look

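In 3 transcripts with shared matches the libraries of an injury model lay on one side of the normal libraries in WT mice and on the other side in KO mice. This held for both models in ncRNA_aligned_5661 and for anti-GBM disease alone in ncRNA_aligned_5660 and ncRNA_aligned_7182. With 2 libraries a group such separation is common. Between injured and normal kidney of a genotype it held, per direction, for 11.7 to 32.7% of all transcripts tested. How many of all transcripts change sides between genotypes was not counted, so the 3 are not a result about the class. ncRNA_aligned_5661 (AF357438) stood at 1.92 and 1.30 CPM in normal WT kidney, at 2.09 and 5.04 CPM after UUO and at 3.42 and 3.27 CPM in anti-GBM disease. In KO mice it had 4.26 and 4.09 CPM in normal, 3.19 and 2.51 CPM in UUO and 3.61 and 3.94 CPM in anti-GBM kidney. So it was higher in both WT models and lower in both KO models, from 6 to 60 reads a library. The interactions were -1.69 ± 1.37 for UUO (edgeR adjusted p 1.00) and -1.19 ± 1.37 for anti-GBM disease (adjusted p 0.797).

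ncRNA_aligned_5660, of the same entry, stood at 13.5 and 14.5 CPM in normal and 12.3 and 6.43 CPM in anti-GBM kidney of WT mice. In KO mice it had 13.0 and 12.0 CPM in normal and 15.7 and 14.2 CPM in anti-GBM kidney. In UUO it had 4.62 and 9.40 CPM in WT and 8.62 and 15.7 CPM in KO mice, and the KO values overlapped those of normal KO kidney. Its anti-GBM interaction was 0.83 ± 0.93 (adjusted p 0.787). ncRNA_aligned_7182 had 21.8 and 30.6 CPM in WT normal against 14.6 and 20.9 CPM in WT anti-GBM, and 22.1 and 26.3 CPM in KO normal against 32.7 and 35.4 CPM in KO anti-GBM, with an interaction of 1.05 ± 0.76 (adjusted p 0.636). In UUO it had 12.1 and 10.7 CPM in WT and 26.5 and 22.6 CPM in KO mice, the latter again overlapping the normal KO values. None of these 4 interactions exceeded the spread between replicates by edgeR's test.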

How the results depend on the processing

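No paired analysis was possible because replicate numbers follow accession order and the labels carry none. Counts of called transcripts, 0 in each comparison, became as follows. DESeq2 called 2 in WT UUO and 1 each in KO anti-GBM against KO normal and against WT anti-GBM. DESeq2's size factors gave 1 in KO anti-GBM against normal (15 over all transcripts). Library size alone gave 1 there (18 over all) and 1 in WT UUO (1023 over all). No filter gave 4 in WT UUO (1046 over all) and 1 each in KO anti-GBM against normal (84) and against WT anti-GBM (183). Libraries of breadth 0.5 or more gave 11 in WT UUO, 8 in WT anti-GBM, 1 in KO anti-GBM against normal, 1 in KO against WT UUO, 3 in KO against WT anti-GBM, and 3 and 1 in the UUO and anti-GBM interactions. Summing reads by match gave 1 in WT UUO (642 over all) and 1 in KO against WT anti-GBM (30 over all). Leaving out 1 library gave 0 to 8 in WT UUO, 0 to 1 in WT anti-GBM, 0 to 7 in KO UUO, 0 to 1 in KO anti-GBM against normal, 0 to 3 in KO against WT UUO, 0 to 2 in KO against WT anti-GBM and 0 to 2 in the UUO interaction. They also tested more transcripts than the main fit, and removing a library changes the spread that all groups share. The part of each in their results was not tested.

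Median log2 fold changes with library size alone were 0.68 in WT UUO, 0.28 in WT anti-GBM, -0.39 in KO against WT anti-GBM and -0.48 in the anti-GBM interaction, where all transcripts moved too, to medians of 1.55, 1.03, -1.37 and -1.51. Leaving out 1 library they ran from -1.16 to -0.31 in WT UUO, -0.80 to -0.27 in WT anti-GBM, -1.14 to -0.18 in KO UUO, -0.59 to 0.58 in KO against WT UUO, -0.17 to 0.44 in KO against WT anti-GBM and -0.50 to 0.75 in the UUO interaction. Summed levels, as group means in CPM, were 7604, 5572 and 6321 in WT normal, UUO and anti-GBM and 6983, 6307 and 13139 in KO. DESeq2's size factors gave 6967 and 6140 in WT normal and UUO. Library size alone gave 5684, 8568 and 7829 in WT, 5375 in KO normal and 9677 in KO anti-GBM. Without the 2 dominant transcripts in the total, they were 8800, 10668 and 10438 in WT and 8654 and 10113 in KO normal and UUO. Reversed in sign were ncRNA_aligned_2145 in KO against WT UUO, at -1.17 without KO UUO replicate 2 (highest 2.84 over the refits without 1 library), and the anti-GBM interaction of ncRNA_aligned_4454, at -0.35 on the libraries of breadth 0.5 or more and -0.37 without KO anti-GBM replicate 1 (highest 8.48).

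Over all transcripts the counts of calls moved by more than 1.5 times in every comparison under some alternative. With DESeq2 they went from 600 to 1377 in WT UUO and from 5 to 434 in KO against WT anti-GBM. No member is shorter than 150 bases, so that alternative changed nothing. Depth limits the 5 untested transcripts and those under 10 CPM.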
